A study of Mus musculus with 13 samples.

Results

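The ionotropic and metabotropic receptors for glutamate and GABA were described through 44 genes of a count table with 53653 rows. They are the subunit genes of AMPA, delta, kainate and NMDA receptors, the metabotropic glutamate receptors, the GABA-A subunits and both GABA-B subunits, taken by gene symbol. The symbols matched 47 rows, and Gabra6, Gabrd and Grin2c were set aside; they stand in the list of granule neuron markers used below. RNA was sequenced from GFP-positive cells sorted out of mouse Sonic hedgehog-type medulloblastomas, tumours that arise from cerebellar granule cell precursors. SmoM2, an active form of the Hedgehog transducer Smoothened, was overexpressed in all 13 samples. The KO metastasis group holds 4 samples of SmoM2 animals with Kmt2d knocked out (Kmt2dCf/Cf in the protocol), taken from the spinal cord at 5 to 8 weeks. The KO primary group holds 4 cerebellar tumours of the same genotype and ages, and the control primary group 5 cerebellar tumours with SmoM2 alone at 6 to 16 weeks. Kmt2d encodes a methyltransferase for lysine 4 of histone H3. The labels name neither the driver of the transgene and of the deletion nor the animal behind each sample, so p-values measure the spread between samples. Age and genotype cannot be told apart where the age ranges of KO and control animals differ.

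Glutamate opens the ionotropic receptors, which are tetramers, and acts more slowly through metabotropic receptors coupled to G proteins. GABA opens the pentameric GABA-A chloride channels and acts through the GABA-B receptor, an obligate pair of Gabbr1 and Gabbr2 proteins. Granule cells express AMPA, NMDA and GABA-A receptors as they leave the cell cycle and mature, and precursors of the external granule layer already carry some of them. In AMPA receptors, 1 codon of the pore-lining loop decides calcium entry. The gene encodes glutamine in all 4 subunits, and in Gria2 the RNA is edited there to arginine. The following coding-strand sequences around that codon were read from GENCODE M21 transcripts and are shown because AMPA subunits lead the levels below. Capitals mark the glutamine codon of the Q/R site.
Gria1: ggggccttcatgCAGcaaggatgtgac
Gria2: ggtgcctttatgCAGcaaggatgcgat
Gria3: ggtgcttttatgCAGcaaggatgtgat
Gria4: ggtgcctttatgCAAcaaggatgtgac
Gria4 uses CAA where the other subunits use CAG. Counts per gene carry no bases, so the edited share of Gria2 was not analysed here.

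Levels below are CPM (counts scaled to the same depth in each library, with TMM-scaled library sizes). Values of single libraries run in the order of the replicate numbers, which are 3, 4, 6 and 7 in both KO groups and 3, 4, 5, 6 and 7 in the controls. Libraries held 23.5 to 41.4 M counts. Of the 44 genes, 42 passed the filter on low counts (at least 0.292 CPM in 4 libraries), while Gabrr1 and Gabrr3, rho subunits of GABA-A receptors, had 90 and 67 counts over all libraries and were not tested. Control primary 3, KO primary 7 and KO metastases 6 and 7 stand apart, with 349 to 1752 CPM on olfactory and vomeronasal receptor genes against 6.08 to 83.5 CPM in the other 9. Xist, which marks female cells, had 330 to 483 CPM in control primaries 5, 6 and 7 and under 1 CPM in the other 10 libraries. Both KO groups lie wholly among those 10, so sex and genotype cannot be fully told apart in the comparisons with controls. Markers of granule cell precursors summed to 3519 to 4754 CPM in KO metastases, 3602 to 4125 CPM in KO primary tumours and 2473 to 3282 CPM in control primary tumours, and none of the 10 averaged under 1 CPM in any group. Markers of differentiating and mature granule neurons (12 genes) summed to 936 to 1583 CPM in KO metastases, 848 to 1034 CPM in KO primary tumours and 1665 to 2973 CPM in control primary tumours. The labels give the metastases no cell type beyond that name, and they held the precursor markers at the levels above. Kmt2d itself had 115 ± 11.2 CPM in KO metastases, 116 ± 35.7 CPM in KO primary tumours and 125 ± 36.7 CPM in control primary tumours (adjusted p against controls = 0.956 in KO primary tumours and 0.945 in metastases). A count over the whole gene does not show whether a deleted part is missing.

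Per kilobase of merged exons, the tumours held a short list of abundant receptor genes. Averaged over the 13 libraries, Gria2 stood at 14.9 CPM per kb and Gria4 at 14.2 CPM per kb, followed by Gabbr1 (11.8 CPM per kb). The kainate subunits Grik5 and Grik2 stood at 8.28 and 7.06 CPM per kb and Gria3 at 4.74 CPM per kb. Gria2 and Gria4 differed by less than the SD of Gria2 in every group, for example 11.3 ± 3.32 and 10.7 ± 2.30 CPM per kb in KO primary tumours and 20.5 ± 6.75 and 20.9 ± 5.27 CPM per kb in control primary tumours. Among the 44 genes, which leave out Gabra6 and Grin2c, Gabra4 (2.96 CPM per kb) was the most abundant GABA-A alpha subunit and Grin3a (2.49) the most abundant NMDA subunit. Grin1, the subunit that every NMDA receptor needs, stood at 0.826 CPM per kb, Grin2b at 0.427 and Grin2a at 0.166. The metabotropic receptor Grm6 (0.0341 CPM per kb) was the lowest of the 44. The plot of levels per kb shows 20 of the more abundant genes. All 44 genes together had 628 to 818 CPM in KO metastases (mean 689 ± 86.8), 565 to 916 CPM in KO primary tumours (715 ± 151) and 701 to 1229 CPM in control primary tumours (1053 ± 215). The lowest control is control primary 3, which overlaps both KO groups. In these sorted bulk samples, fewer cells of a type and less RNA per cell cannot be told apart.

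**Figure D1:**
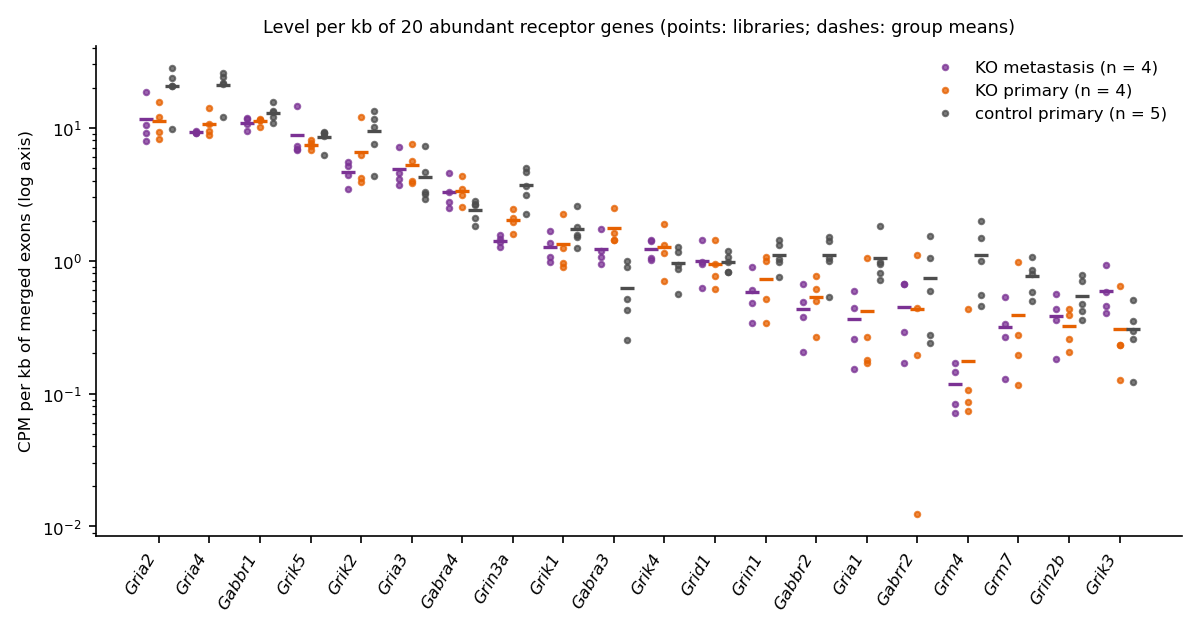
Level of 20 abundant receptor genes in CPM per kb of merged exons (log axis), with a point for each library and a dash for each group mean (KO metastasis n = 4, KO primary n = 4, control primary n = 5). Gria2, Gria4 and Gabbr1 lead the order, and control libraries lie above most KO libraries for Gria4 and Grin3a.

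Against control primary tumours, 5 of the 42 genes measured passed the test in KO primary tumours (edgeR's quasi-likelihood test on all 13 libraries, Benjamini-Hochberg adjusted p below 0.05 over 22265 genes). Of the 5, 1 was higher and 4 were lower, Gria4, Grin3a and Grm4 among them. Among all genes tested 1.15% were called higher and 1.78% lower, and among the 42 the shares were 2.38% and 9.52%. Of the 42, 33 had a negative log2 change and 9 a positive one, and their median was -0.77 beside -0.05 for all genes tested. At an unadjusted p below 0.05 there were 14 of the 42 (33.3%), 3 higher and 11 lower, beside 13.6% of all genes. In KO metastases, 1 gene was higher and 3 were lower (Gria4, Grin3a and Grm4), beside 1.06% and 2.02% of all genes. There 30 of 42 changes were negative with a median of -0.61 (-0.27 by limma voom), beside -0.04 for all genes (0.08 by limma voom), and 16 (38.1%) had an unadjusted p below 0.05 beside 14.2% of all genes. Both comparisons use the same 5 control samples. The 4 lower calls in KO primary tumours came to 0 without KO primary 4 or 6 or control primary 4 or 7, to 1 without control primary 6, to 2 without KO primary 3 and to 0 without the 3 controls with Xist, and they were 7 without the 4 libraries with many olfactory receptor counts. Without the 3 controls with Xist, 0 receptor genes were called lower in KO metastases as well, with 2 controls left in that fit. Of all genes, that fit called 60 higher and 78 lower (0.277%) in KO primary tumours. In KO metastases it called 44 higher and 56 lower (0.199%).

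**Figure D2:**
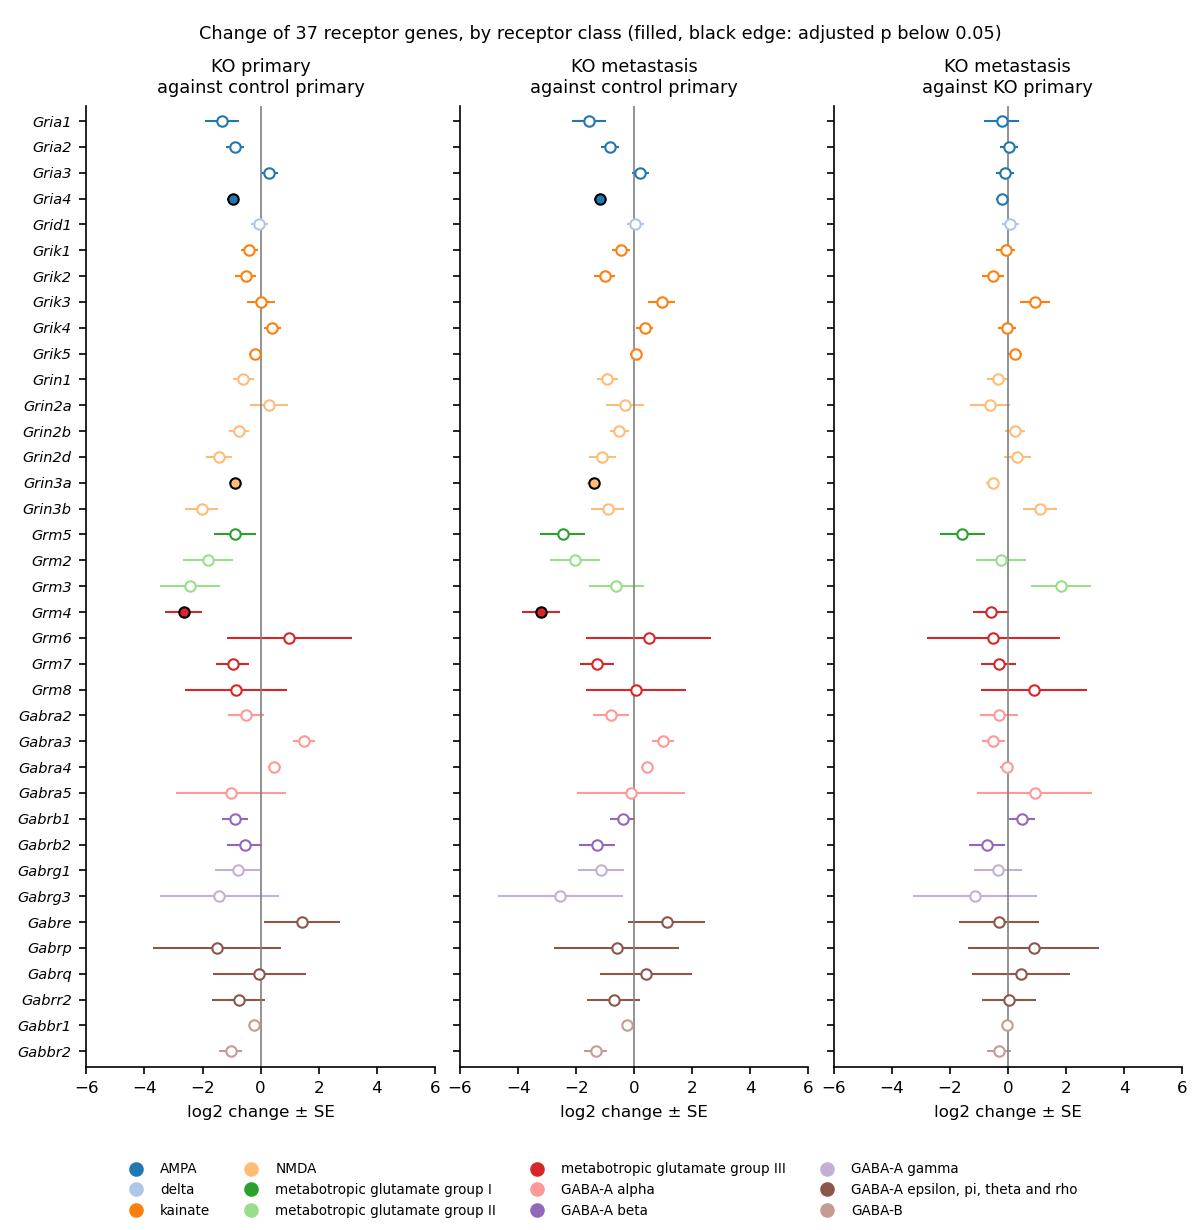
Log2 change with its SE (horizontal axis) of 37 receptor genes, coloured by receptor class, for KO primary against control primary, KO metastasis against control primary and KO metastasis against KO primary. Filled points with a black edge passed an adjusted p of 0.05: 3 genes in the first panel, 3 in the second and 0 in the third.

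**Figure D3:**
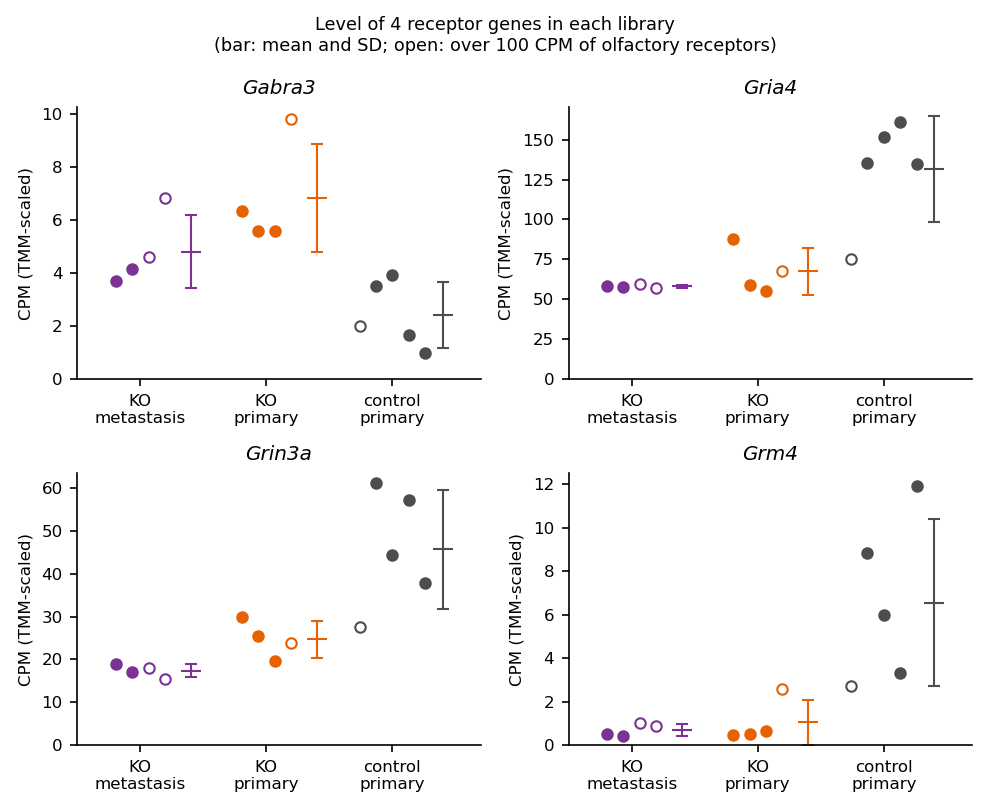
TMM-scaled CPM of Gabra3, Gria4, Grin3a and Grm4 in each library of the KO metastasis (n = 4), KO primary (n = 4) and control primary (n = 5) groups, with the mean and SD beside the points. Open points are the 4 libraries over 100 CPM of olfactory receptor genes, and among the controls the open point is the lowest for Gria4, Grin3a and Grm4.

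Among the AMPA subunits Gria4 (chr9:4417896-4796234 in GRCm38) was lower in both KO groups. Gria4 had 58.0, 57.7, 59.6 and 57.3 CPM in the KO metastases, 87.9, 59.1, 55.4 and 67.4 CPM in the KO primary tumours and 75.5, 135, 151, 161 and 135 CPM in the control primary tumours. The KO metastases lie within 57.3 and 59.6 CPM and below each control, while KO primary 3 exceeds control primary 3, the only overlap with KO primary tumours. The log2 change was -1.18 ± 0.20 (SE; adjusted p = 0.00569) in KO metastases and -0.96 ± 0.20 (SE; adjusted p = 0.0186) in KO primary tumours. The call in KO primary tumours was lost without KO primary 4 or 6 or control primary 4, 6 or 7 (adjusted p of 0.0507 to 0.0995), and the call in KO metastases held in all 9 such fits (up to 0.0343). Without the controls with Xist, Gria4 was not called in KO metastases (-0.81, adjusted p = 0.431) or KO primary tumours (-0.62, 0.681). The RefSeq promoter window of Gria4, 250 bases before the start on the minus strand of GRCm38.p6 at chr9:4796235-4796484, is shown because Gria4 was called in both KO groups. Capitals mark its match to CANNTG, the E-box read by basic helix-loop-helix factors, searched on both strands.
Gria4 promoter: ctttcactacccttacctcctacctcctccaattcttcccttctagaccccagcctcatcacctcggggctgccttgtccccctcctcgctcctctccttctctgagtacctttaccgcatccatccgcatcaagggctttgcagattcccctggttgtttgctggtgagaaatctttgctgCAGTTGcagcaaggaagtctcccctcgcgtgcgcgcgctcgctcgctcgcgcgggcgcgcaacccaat
The match lies 68 bases before the start, and GACCACCCA, the Gli consensus, has no match in the window. Over all 32851 promoter windows 66.2% hold CANNTG and 0.225% hold GACCACCCA. Of 37 windows of the 30 receptor genes with an entry, 48.6% hold CANNTG and 0 hold GACCACCCA.

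Gria2, the subunit that limits calcium entry, had 289.7, 123.1, 143 and 163 CPM in the KO metastases, 243, 145, 127 and 186 CPM in the KO primary tumours and 153, 367, 438, 319 and 319 CPM in the control primary tumours. Control primary 3 lies among the KO libraries and KO metastasis 3 far above the other metastases. Its log2 change was -0.87 ± 0.31 (SE; adjusted p = 0.189) in KO primary tumours and -0.83 ± 0.31 (SE; adjusted p = 0.216) in KO metastases, past the threshold in both without control primary 3 (adjusted p = 0.0367 and 0.0395). Gria1 had 2.18 ± 1.18 CPM in KO metastases, 2.52 ± 2.57 CPM in KO primary tumours and 6.36 ± 2.68 CPM in control primary tumours (SD; log2 change -1.33, adjusted p = 0.313, and -1.54, 0.219). The metastases lay below each control for this gene. In KO primary tumours it passed the threshold without KO primary 7, where it was the highest of its group. Gria3, on the X chromosome, had 48.2 ± 15.4 CPM in KO metastases, 51.3 ± 17.0 CPM in KO primary tumours and 41.8 ± 17.8 CPM in control primary tumours and a log2 change of 0.30 ± 0.30 (SE; adjusted p = 0.839) in KO primary tumours.

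The make-up of the AMPA subunit RNA was compared as shares of the summed CPM per kb, a measure chosen after the values were seen and given without a test. Gria3 made up 14.0, 29.4, 17.5 and 15.7% in the KO metastases, 20.1, 22.8, 18.2 and 14.2% in the KO primary tumours and 11.5, 6.34, 12.05, 8.92 and 7.05% in the control primary tumours. All 8 KO libraries lie above all 5 controls. The controls with Xist (12.05, 8.92 and 7.05%) and those without (11.5 and 6.34%) overlap. Gria4 made up 36.1 ± 5.47% in KO metastases, 39.1 ± 2.01% in KO primary tumours and 45.1 ± 3.72% in control primary tumours. Gria2 held 43.2 ± 10.4%, 40.5 ± 2.44% and 43.3 ± 4.01% in the same order of groups, and Gria1 1.46 ± 0.910%, 1.52 ± 1.53% and 2.39 ± 1.00%. These shares sum to the whole, so the share of each subunit depends on the levels of the others.

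**Figure D4:**
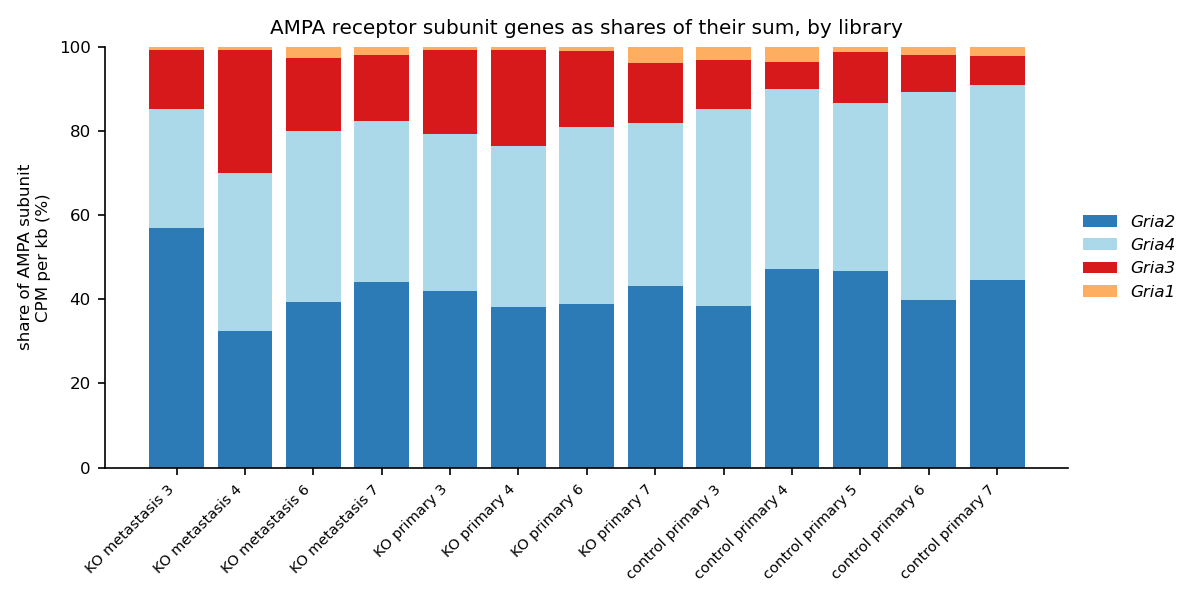
Share of Gria2, Gria4, Gria3 and Gria1 in the summed AMPA subunit CPM per kb (vertical axis, %) in each of the 13 libraries. The Gria3 part spans 14.0 to 29.4% in the 8 KO libraries and 6.34 to 12.05% in the 5 controls.

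Grid1, which encodes the delta-1 receptor, had 5.94 ± 1.99 CPM in KO metastases, 5.59 ± 2.11 CPM in KO primary tumours and 5.79 ± 0.955 CPM in control primary tumours and was not called (adjusted p = 0.987 in KO primary tumours and 0.987 in metastases). No kainate receptor gene was called in either comparison with controls. Grik2, the most abundant of the 5 by CPM, had 58.2, 68.5, 73.2 and 45.5 CPM in the KO metastases, 159.9, 82.5, 55.0 and 51.4 CPM in the KO primary tumours and 57.0, 178, 134, 153 and 100.2 CPM in the control primary tumours. KO primary 3 lies among the controls and control primary 3 among the KO libraries. The log2 change was -1.02 ± 0.36 (SE; adjusted p = 0.183) in KO metastases, past the threshold without control primary 3 (adjusted p = 0.0421), and -0.51 ± 0.36 (SE; adjusted p = 0.651) in KO primary tumours. Grik5, a subunit that needs a partner to form a channel, had 45.8 ± 19.2 CPM in KO metastases, 38.5 ± 3.04 CPM in KO primary tumours and 43.8 ± 6.65 CPM in control primary tumours, with KO metastasis 3 at 74.5 CPM and the other 3 metastases at 35.3 to 37.6 CPM. Grik1, Grik3 and Grik4 averaged between 2.76 and 11.7 CPM in each group. Their adjusted p was 0.417 or higher in both comparisons.

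In all, 5 of the 6 NMDA subunit genes among the 44 had a negative log2 change in KO primary tumours and all 6 did in KO metastases. Grin2c, set aside above, is not among the 6. Grin3a passed the test in both. Grin3a encodes a subunit that lowers the calcium permeability and magnesium block of NMDA receptors, and it lies at chr4:49661611-49845744. It had 19.0, 17.0, 17.9 and 15.5 CPM in the KO metastases, 30.004, 25.5, 19.6 and 23.8 CPM in the KO primary tumours and 27.6, 61.3, 44.4, 57.4 and 37.9 CPM in the control primary tumours. The metastases lie below every primary tumour, and among KO primary tumours KO primary 3 alone exceeds the lowest control. The log2 change was -1.40 ± 0.22 (SE; adjusted p = 0.00348) in KO metastases and -0.89 ± 0.22 (SE; adjusted p = 0.0419) in KO primary tumours. With 1 library removed at a time, the second call missed the threshold in 8 of 9 fits (adjusted p of 0.0605 to 0.178) and passed without control primary 3 (0.00512), and the first held in all 9. Without the controls with Xist, Grin3a was not called in KO metastases (-1.32, adjusted p = 0.146) or KO primary tumours (-0.84, 0.527).

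Grin1 had 5.63 ± 2.30 CPM in KO metastases, 7.06 ± 3.48 CPM in KO primary tumours and 10.7 ± 2.68 CPM in control primary tumours (adjusted p = 0.564 in KO primary tumours and 0.253 in metastases). Grin2b, a glutamate-binding subunit of early development, had 9.52 ± 3.90 CPM in KO metastases, 8.04 ± 2.68 CPM in KO primary tumours and 13.5 ± 4.52 CPM in control primary tumours (adjusted p = 0.352 in KO primary tumours). Grin2d, of the same kind, had 1.72 ± 1.17 CPM in KO metastases, 1.36 ± 0.353 CPM in KO primary tumours and 3.66 ± 1.39 CPM in control primary tumours. It did not overlap between KO primary tumours (0.886 to 1.71 CPM) and controls (1.72 to 5.05 CPM), with a log2 change of -1.43 ± 0.46 (SE; adjusted p = 0.133). Grin2a, which replaces Grin2b in mature neurons, had 2.37 ± 1.61 CPM in KO metastases, 3.64 ± 0.926 CPM in KO primary tumours and 2.94 ± 2.16 CPM in control primary tumours with a log2 change of 0.31 in KO primary tumours. Grin3b had 0.946 ± 0.532 CPM in KO metastases, 0.435 ± 0.163 CPM in KO primary tumours and 1.79 ± 0.731 CPM in control primary tumours, did not overlap between KO primary and control tumours and missed the threshold (log2 change -2.03, adjusted p = 0.0844), passing it without control primary 3 (adjusted p = 0.0299). Of its exon length, 32.1% is shared with Tmem259 on the opposite strand. Tmem259 held 1158 to 2807 counts per library against 8 to 73 of Grin3b, so reads of the pair cannot be told apart where strand was not used. Without Grin2c, the NMDA genes summed to 29.0 to 42.8 CPM in KO metastases and 39.2 to 50.2 CPM in KO primary tumours, below the 64.0 to 93.3 CPM of control primary tumours. Grin2c, which is not in these sums, had 8.15 ± 4.28 CPM in KO metastases, 16.8 ± 15.2 CPM in KO primary tumours and 8.51 ± 8.32 CPM in control primary tumours.

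The metabotropic glutamate receptors were lower in level, and Grm4 passed the test in both KO groups. Grm4 is a group III receptor that inhibits transmitter release from granule cell axons, and it lies at chr17:27422387-27521403. It had 0.503, 0.424, 1.02 and 0.863 CPM in the KO metastases, 0.443, 0.517, 0.635 and 2.57 CPM in the KO primary tumours and 2.74, 8.83, 5.97, 3.32 and 11.9 CPM in the control primary tumours. The KO libraries do not overlap the controls, although KO primary 7 (2.57 CPM) comes close to control primary 3 (2.74 CPM). The log2 change was -3.22 ± 0.65 (SE; adjusted p = 0.0150) in KO metastases and -2.65 ± 0.63 (SE; adjusted p = 0.0366) in KO primary tumours. The first call was lost without KO metastasis 3 or 4 (adjusted p = 0.0557 and 0.0622), and the second without KO primary 3, 4 or 6 or control primary 4 or 7 (0.0788 to 0.151). Without the controls with Xist, Grm4 stood at -3.03 (adjusted p = 0.181) in KO metastases and -2.54 (0.299) in KO primary tumours.

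Of group I, which couples to phospholipase C, Grm5 had 0.915 ± 0.775 CPM in KO metastases, 2.701 ± 1.23 CPM in KO primary tumours and 5.04 ± 3.48 CPM in control primary tumours, with a log2 change of -2.46 ± 0.78 (SE; adjusted p = 0.120) in KO metastases. Grm2, of group II, had 0.539, 0.610, 1.16 and 0.547 CPM in the KO metastases, 0.521, 0.326, 0.0793 and 2.44 CPM in the KO primary tumours and 3.61, 2.58, 0.304, 3.51 and 4.71 CPM in the control primary tumours. Controls 3, 4, 6 and 7 lie above each KO library and control primary 5 lies among them, and the gene was not called (adjusted p = 0.383 in KO primary tumours and 0.290 in metastases). Grm3, of the same group, averaged under 1 CPM in each group, and its log2 change of -2.44 ± 1.03 (SE; adjusted p = 0.297) in KO primary tumours missed the threshold. Grm7 had 1.85 ± 0.979 CPM in KO metastases, 2.31 ± 2.34 CPM in KO primary tumours and 4.48 ± 1.34 CPM in control primary tumours and was called lower in KO primary tumours without KO primary 7. Exons of Grm2 overlap Gm28111 on the opposite strand over 9.60% of their length, Grin1 overlaps Grin1os over 13.5% and Grin2d overlaps Gm45441 over 9.66%.

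Part of the granule neuron markers was lower in the KO groups too. Neurod1 had 178 ± 55.4 CPM in KO metastases, 162 ± 41.2 CPM in KO primary tumours and 567 ± 186 CPM in control primary tumours (log2 change -1.81, adjusted p = 0.00286, in KO primary and -1.67, 0.00446, in KO metastases). In KO primary tumours 4 of the 12 markers were called lower, Tubb3, Neurod1, Snap25 and Cntn2, and 0 higher, beside 1.78% of all genes lower. In KO metastases 4 were lower, Neurod1, Snap25, Cbln3 and Tubb3, beside 2.02% of all genes. Oligodendrocyte precursor markers, of another lineage that uses AMPA receptors, summed to 638 to 756 CPM in KO metastases, 718 to 1148 CPM in KO primary tumours and 1097 to 1524 CPM in control primary tumours, with none of 7 averaging under 1 CPM in any group. Of these 7, 4 were called lower in KO metastases, C1ql1, Cspg4, Gpr17 and Pdgfra, and 1 in KO primary tumours, C1ql1, with 0 higher in both. The 3 genes set aside behaved by group as follows. Gabra6, which marks mature granule cells, had 0.208 ± 0.254 CPM in KO metastases, 0.622 ± 1.12 CPM in KO primary tumours and 7.73 ± 11.4 CPM in control primary tumours, Gabrd 0.0655 ± 0.0839 CPM in KO metastases, 0.310 ± 0.490 CPM in KO primary tumours and 2.17 ± 2.76 CPM in control primary tumours and Grin2c 8.15 ± 4.28 CPM in KO metastases, 16.8 ± 15.2 CPM in KO primary tumours and 8.51 ± 8.32 CPM in control primary tumours, and none was called (adjusted p of 0.184 or higher). The part of these markers in the receptor changes was not tested.

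Several mouse GABA-A subunit genes stand in clusters, and neighbours differed in level. The sign of the log2 change in KO primary tumours differed within the chromosome 5 cluster, where no gene was called. It was not mixed in every cluster. On chromosome 5, within 1.398 Mb (GRCm38 70751047 to 72149037), Gabra4 led. Gabra4, an alpha subunit found in extrasynaptic receptors, had 15.05, 27.5, 16.9 and 19.8 CPM in the KO metastases, 21.0, 26.3, 19.0 and 15.5 CPM in the KO primary tumours and 11.1, 15.996, 17.1, 12.8 and 16.2 CPM in the control primary tumours. Its groups overlap, with a log2 change of 0.48 ± 0.21 (SE; adjusted p = 0.334) in KO primary tumours. Gabra2, Gabrb1 and Gabrg1 of the same cluster averaged 1.08 to 3.48 CPM in each group, and their log2 changes in KO primary tumours were -0.50, -0.88 and -0.79, none called. Gabra4 and Gabrb1 start head to head and share 46 exon bases on opposite strands. On the X chromosome, within 0.587 Mb (72255999 to 72842602), Gabra3 had 3.70, 4.14, 4.60 and 6.82 CPM in the KO metastases, 6.33, 5.58, 5.61 and 9.83 CPM in the KO primary tumours and 2.02, 3.53, 3.91, 1.67 and 0.996 CPM in the control primary tumours. Gabra3 is an alpha subunit expressed early in neuronal development. KO primary tumours lie above each control, and the log2 change of 1.496 ± 0.38 (SE; adjusted p = 0.0505) missed the threshold. With 1 library removed at a time, Gabra3 missed it in 8 of 9 fits (adjusted p up to 0.133) and passed without control primary 5 (0.0324). It also passed by DESeq2 (0.00546) and by limma voom (0.00513), which called 3.06% and 7.35% of all genes higher. Gabra3 missed the threshold with RLE size factors, without the low-count filter and in a fit of 2 groups only. The same held without the 4 libraries with many olfactory receptor counts and without the controls with Xist. In KO metastases the change was 0.99 ± 0.38 (SE; adjusted p = 0.226). The controls without Xist had 2.02 and 3.53 CPM, and those with Xist 0.996 to 3.91 CPM. Its neighbours Gabre and Gabrq averaged under 1 CPM in each group.

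Gabrb2 had 1.41 ± 0.924 CPM in KO metastases, 2.33 ± 0.311 CPM in KO primary tumours and 3.41 ± 1.31 CPM in control primary tumours and was not called. Gabra5 and Gabrg3 averaged 0.252 and 0.523 CPM over the 13 libraries.

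Of the other GABA-A subunits, the rho subunit Gabrr2 had 0.359, 0.610, 1.40 and 1.41 CPM in the KO metastases, 0.0260, 0.408, 0.926 and 2.30 CPM in the KO primary tumours and 3.23, 0.504, 2.20, 0.579 and 1.24 CPM in the control primary tumours. Its groups overlap widely (adjusted p = 0.887 in KO primary tumours).

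Of the GABA-B pair, Gabbr1 carries the binding site for GABA and Gabbr2 couples to the G protein. Gabbr1 had 89.4, 73.7, 82.8 and 92.5 CPM in the KO metastases, 89.3, 78.1, 88.5 and 89.4 CPM in the KO primary tumours and 83.5, 121, 101, 104 and 93.7 CPM in the control primary tumours. The groups overlap, and the log2 change was -0.22 ± 0.13 (SE; adjusted p = 0.502) in KO primary tumours and -0.25 ± 0.13 (SE; adjusted p = 0.399) in KO metastases. Gabbr2 had 2.91 ± 1.30 CPM in KO metastases, 3.58 ± 1.42 CPM in KO primary tumours and 7.32 ± 2.56 CPM in control primary tumours, with a log2 change of -1.03 ± 0.40 (SE; adjusted p = 0.245) in KO primary tumours and -1.33 ± 0.41 (SE; adjusted p = 0.110) in KO metastases. Per kb, Gabbr1 exceeded Gabbr2 in each group, at 10.9 and 0.435 CPM per kb in KO metastases, 11.1 and 0.536 in KO primary tumours and 12.98 and 1.10 in control primary tumours.

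Between KO metastases and KO primary tumours, 0 of the 42 genes were called in either direction by edgeR, by DESeq2 and by limma voom, beside 0.00449% of all genes higher and 0% lower by edgeR. At an unadjusted p below 0.05 there were 2 of 42 (4.76%), Grin3a being 1 of them, beside 3.23% of all genes. Grin3a had a log2 change of -0.51 (unadjusted p = 0.0389) and an adjusted p of 1.00. The 42 changes ran from -1.56 (Grm5) to 1.83 (Grm3) with a median of -0.11, which was 0.27 by limma voom and 0.30 without KO primary 7, so it has no stable sign. Grm5 had 0.646, 0.0530, 1.90 and 1.06 CPM in the KO metastases and 1.22, 2.34, 4.13 and 3.11 CPM in the KO primary tumours, which overlap. Metastases held 170 to 1895 CPM of oligodendrocyte markers and 10.7 to 182 CPM of microglia and macrophage markers, against 66.8 to 97.9 and 3.13 to 15.3 CPM in KO primary tumours, and 2 of the 4 metastases are libraries with many olfactory receptor counts. The part of these cells in the differences was not tested.

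Genes whose libraries did not overlap between groups were counted as well. In KO primary against control primary tumours, 2 genes lay wholly higher, Gabra3 being 1 (4.76% of the 42, beside 3.57% of all genes) and 4 wholly lower, with Grin2d, Grin3b and Grm4 among them (9.52%, beside 3.85%). In KO metastases against control primary tumours, 1 gene lay wholly higher (2.38%, beside 2.81%) and Gria1, Gria4, Grin3a and Grm4 wholly lower (9.52%, beside 4.01%). In KO metastases against KO primary tumours, 0 lay wholly higher (beside 0.683%) and Grin3a wholly lower (2.38%, beside 1.04%). Gria4, Grin3a and Grm4 were called in both KO groups, each time against the same controls.

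Partner genes were taken as lists of auxiliary subunits, scaffolds, and the synthesis and transport of both transmitters. Of 17 genes for AMPA and kainate auxiliary subunits, 2 were called lower and 0 higher in each KO group. Of all genes, 1.78% were called lower in KO primary tumours and 2.02% in KO metastases. Cnih2, a cornichon that slows AMPA receptor kinetics, had 26.1 ± 5.36 CPM in KO metastases, 23.1 ± 5.64 CPM in KO primary tumours and 94.2 ± 13.998 CPM in control primary tumours (log2 change -2.02, adjusted p = 0.000216, in KO primary and -1.85, 0.000355, in KO metastases). Olfm2, a secreted partner of AMPA receptors, had 5.33 ± 3.97 CPM in KO metastases, 4.64 ± 3.46 CPM in KO primary tumours and 32.1 ± 5.13 CPM in control primary tumours (log2 change -2.79, 0.0170, and -2.59, 0.0236). Its call was lost without KO primary 3, 4 or 6 in the first comparison (0.0557 to 0.0779) and without KO metastasis 3, 4 or 6 or control primary 4 in the second (0.0524 to 0.0871). The list's median log2 change was -0.32 in KO primary tumours and -0.45 in KO metastases, beside -0.05 and -0.04 for all genes tested.

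Of 24 excitatory scaffold genes 2 were called lower and 0 higher in each KO group, with medians of -0.28 and -0.31. Among all genes 1.78% and 2.02% were called lower, with medians of -0.05 and -0.04. Dlg4, encoding PSD-95, had 9.66 ± 2.12 CPM in KO metastases, 10.1 ± 2.64 CPM in KO primary tumours and 34.1 ± 6.29 CPM in control primary tumours (log2 change -1.75, adjusted p = 0.000827, and -1.82, 0.000693). Lrrtm2, a synaptic adhesion protein, had 9.30 ± 0.874 CPM in KO metastases, 7.95 ± 1.75 CPM in KO primary tumours and 21.8 ± 7.69 CPM in control primary tumours (log2 change -1.45, 0.00780, and -1.23, 0.0193), and its second call was lost without KO metastasis 3, 4 or 6 or control primary 4 (0.0548 to 0.0741). The calls of Cnih2 and Dlg4 held in all 9 fits without 1 library in both comparisons. Without the controls with Xist, Olfm2 had log2 changes of -2.87 in KO primary tumours and -2.61 in metastases and was not called (adjusted p = 0.143 and 0.210). Lrrtm2 had -1.65 and -1.38 in the same order and was not called (0.0561 and 0.128), with 2 controls left in these fits. The 13 inhibitory scaffold genes measured had 0 calls and medians of -0.04 and -0.06. Their smallest p in both was that of Gabarapl2, of the GABARAP family, at 73.7 ± 5.13 CPM in KO metastases, 69.4 ± 8.45 CPM in KO primary tumours and 96.2 ± 24.2 CPM in control primary tumours (adjusted p = 0.171 and 0.289). The 11 genes of glycine receptors and chloride transport had 0 calls. Slc12a5, the chloride exporter of mature neurons, had 1.24 ± 1.03 CPM in KO metastases, 1.01 ± 1.24 CPM in KO primary tumours and 2.93 ± 1.69 CPM in control primary tumours (adjusted p = 0.438 in KO primary), and Glrb, the glycine receptor beta subunit, 46.1 ± 17.0 CPM in KO metastases, 57.6 ± 14.1 CPM in KO primary tumours and 77.3 ± 16.4 CPM in control primary tumours (adjusted p = 0.190 in KO metastases). Of 22 genes for synthesis, release and uptake, 0 were called in KO primary tumours (smallest p for the glutamate transporter Slc1a2, adjusted p = 0.0963), and Glul, glutamine synthetase, was called higher in KO metastases at 61.1 ± 12.8 CPM in KO metastases, 53.4 ± 9.65 CPM in KO primary tumours and 37.3 ± 6.20 CPM in control primary tumours (log2 change 0.71, adjusted p = 0.0415). The Glul call was lost in 7 of 9 fits without 1 library. Between KO metastases and KO primary tumours none of these 5 lists held a call by edgeR, and the smallest p-values of 4 of them were those of Cacng5, Dlgap3, Slc6a11 and Slc12a4.

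Some receptor genes were counted almost wholly in the 4 libraries that stand apart. Those libraries hold 27.5% of all counts, and 9 of the 44 receptor genes had over 50% of their counts there. How many of all genes pass 50% is not given here. For 6 of the 9 receptor genes the share was 90.1 to 100%: Grm6, Gabrp, Gabrr3, Gabrg3, Grm8 and Gabra5. These 6 summed to 0, 0.186, 4.11 and 4.06 CPM in the KO metastases, 0, 0.326, 0.397 and 5.31 CPM in the KO primary tumours and 14.1, 0.118, 0.570, 0.129 and 0.108 CPM in the control primary tumours. The libraries at 4.06 CPM and above are those with 349 CPM or more of olfactory receptor genes. The 6 genes were picked by their share in these libraries, so higher sums there follow from the choice. Grm6, the receptor of retinal bipolar cells, had 78 counts, all 78 of them there. For the genes called lower in both KO groups the share was 17.2% (Grm4), 20.3% (Grin3a) and 21.4% (Gria4). Most of the 4 libraries are KO libraries, so a gene lower in KO samples tends to a low share by that alone. These shares therefore cannot show whether the olfactory receptor counts bear on the calls.

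**Figure D5:**
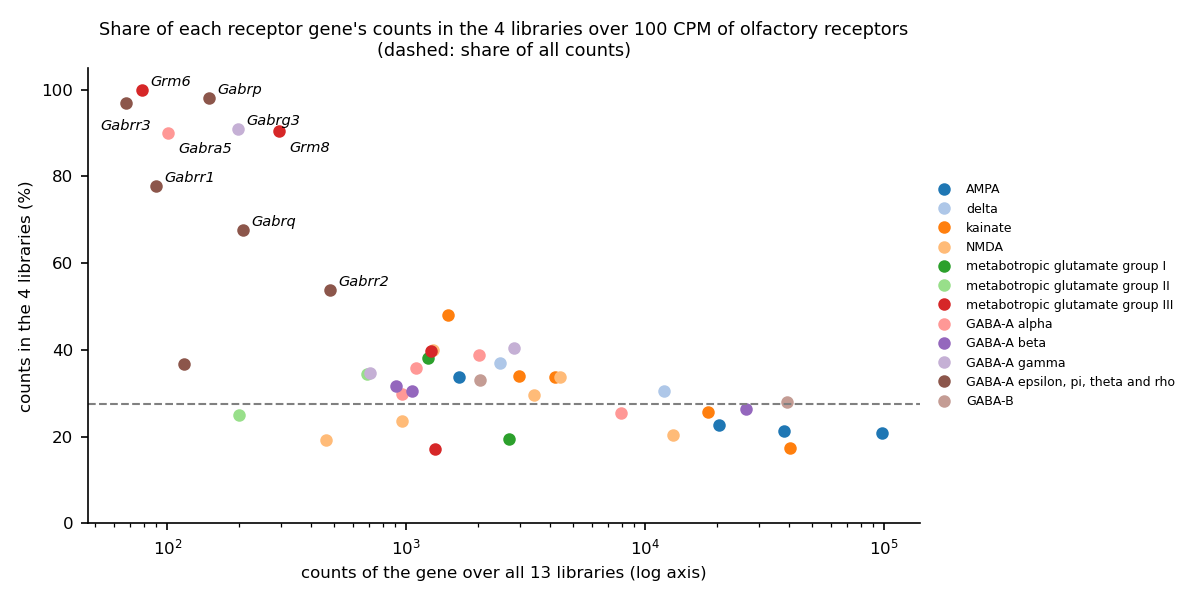
Share of each receptor gene's counts that fell in the 4 libraries over 100 CPM of olfactory receptor genes (vertical axis, %) against its counts over all 13 libraries (log axis), coloured by receptor class. The dashed line is the 27.5% of all counts those libraries hold, and the 9 genes over 50% have their names.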

How the data were processed

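RNA from GFP-positive sorted cells of 4 KO metastases, 4 KO primary tumours and 5 control primary tumours was sequenced after a TruSeq kit, per the labels' protocols. The deposited table holds raw counts per gene symbol (53653 rows), and the submitters' processing notes name STAR 2.4, HTSeq 0.6.1, DESeq2 and mm10. The sources used here name neither the annotation nor the strand setting. Counts were tested with edgeR 4.0.16 (R 4.3.3, TMM, quasi-likelihood) on all 13 libraries, after a filter (minimum count 10, total 15) that left 22265 genes, with Benjamini-Hochberg adjustment over them. The fit was tested on simulated data. Library totals of 23.5 to 41.4 M counts set the precision, and low genes are the least certain.

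Values in every library were given for genes called and for the most abundant gene of each receptor class, and group values for those with an unadjusted p below 0.05. Some genes that this rule takes are counted but not reported here by name, nor drawn in plots that name genes. The members, lists and tests were chosen with earlier results of these data known. Exon lengths and coordinates come from GENCODE M21 (GRCm38), where all 44 symbols matched, and promoter sequence from RefSeq. Alternatives were RLE size factors, no filter, DESeq2 1.42.0, limma 3.58.1 voom, a fit of 2 groups only, a replicate block, and fits without 1 library, the 4 libraries with many olfactory receptor counts or the controls with Xist.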

Additional observations from a re-analysis of the deposited data

Results flagged for a closer look

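In 6 of 72 groups of libraries examined for the named genes, 1 library stood far from the others by Dixon's test, and chance flags about 1 in 20 groups. Gria1 had 6.37 CPM in KO primary 7, where the nearest of its group had 1.61 CPM, and 11.02 CPM in control primary 4 (nearest 5.86 CPM). Grm4 had 2.57 CPM in KO primary 7 (nearest 0.635 CPM). Grin2d had 3.45 CPM in KO metastasis 3 (nearest 1.40 CPM), and Grm2 had 1.16 CPM in KO metastasis 6 (nearest 0.610 CPM). Gabbr1 had 78.1 CPM in KO primary 4, the lowest of its group (nearest 88.5 CPM). KO primary 7 and KO metastasis 6 are among the 4 libraries with many olfactory receptor counts, and the part of that in these values was not tested.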

How the results depend on the processing

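Of the counts of receptor genes called, 80 held under the alternatives and 20 moved. The 80 include the counts between KO metastases and KO primary tumours, where 0 receptor genes were called in every fit. A count can also hold while its genes change. Without KO primary 7 the 4 lower calls against controls were Gria1, Gria4, Grm4 and Grm7, and Grin3a was lost. No receptor or partner gene that was called in the report changed sign, but the median change between KO metastases and KO primary tumours (-0.11) turned to 0.27 by voom and 0.30 without KO primary 7, and that of KO metastases against control primary tumours (-0.61) was -0.27 by voom. In KO primary against control primary tumours, the count called higher (1) was 2 by DESeq2 (beside 3.06% of all genes in that fit), 4 by voom (7.35%) and 1 to 2 without 1 library, 2 being the value without control primary 5. The count called lower (4) was 7 by DESeq2 (4.34%), 11 by voom (7.33%), 2 with the replicate block (1.74%), 7 without the 4 libraries with many olfactory receptor counts (4.35%), 0 without the controls with Xist (0.277%) and 0 to 6 without 1 library. In KO metastases against control primary tumours, the count called higher (1) was 7 by voom (beside 10.4% of all genes). The count called lower (3) was 6 by DESeq2 (4.29%), 8 by voom (6.75%), 5 without the 4 libraries (3.43%), 0 without the controls with Xist (0.199%) and 2 to 5 without 1 library. By DESeq2 the lower calls in KO primary tumours included Gria2 (adjusted p = 0.0427), Grin2d (0.0268) and Grin3b (0.00437). The causes of these moves were not tested. Without the controls with Xist, the median of all genes moved to -0.22 in KO primary tumours and -0.12 in KO metastases. With the replicate block, Gria4 (-0.89, adjusted p = 0.0962) and Grin3a (-0.87, 0.118) were not called in KO primary tumours, and Glul (0.70, 0.0541) was not called in KO metastases. Same-numbered samples correlated at -0.428 to 0.184 (KO primary and control), -0.311 to 0.331 (KO metastasis and control) and 0.00951 to 0.559 (KO metastasis and KO primary). In each comparison at least 1 pair was under 0.1, and 1 of 4 metastases correlated best with its own number, so the numbers were not taken as pairs. KO metastases 6 and 7 both correlated best with KO primary 7 (0.498 and 0.559), and all of these have many olfactory receptor counts. The correlations therefore cannot decide whether some samples share an animal, which is not given by the labels. Depth limits genes near 1 CPM most.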
